A study of Mus musculus with 8 samples.

Results

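The 10 genes described here encode the subunits of 2 kinase complexes that act one after the other, the LKB1 complex (Stk11, Strada, Cab39 and Cab39l) and AMPK (Prkaa1, Prkaa2, Prkab1, Prkab2, Prkag1 and Prkag2). They were taken by symbol, as all rows of the count table that carry one of these 10 names, and the rule itself uses no measured value, although the genes were proposed with earlier results of these data known. Each symbol had a single row among the 21165 rows, and all 10 passed the filter on low counts that left 12699 genes to test.

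LKB1 is a serine/threonine kinase that needs a pseudokinase partner of the STRAD family, which switches it on and keeps it in the cytoplasm, and a scaffold protein of the MO25 family, which locks the pair together. The complex activates AMPK and the AMPK-related kinases, NUAK1 among them, by phosphorylating a threonine in their activation loop. AMPK is a trimer of a catalytic alpha, a scaffolding beta and a nucleotide-binding gamma subunit that responds to a falling energy supply, and LKB1 in developing cortical neurons is best known for its roles in polarity and axon growth.

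The study asked what NUAK1 does in the mouse cortex, and the RNA sequenced came from microdissected cortices of E18.5 embryos, 4 of them Nuak1 KO and 4 WT. The KO embryos came from a constitutive line, in which the loss is not limited to one cell type, and since these animals die at birth no later stage was sampled. Mice of the study were kept on a C57Bl/6JRj background, and the labels name no treatment for either group. The labels name 3 litters (A, C and D) that gave 2, 1 and 1 embryos to each genotype, with 2 males among the KO and 1 male among the WT embryos, whereas the design text of the series speaks of 4 litters. The columns of the table carry only a genotype and a running number, so these labels tie no library to a litter or a sex. Sex was not read from the counts here. Each library stands for 1 embryo, named below as in KO library R1, and p-values measure the spread between these embryos.

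Totals ran from 11027082 to 27014858 counts in KO and from 9643711 to 18940484 in WT. Values below are normalised counts, which are raw counts brought to a common library size by TMM, and means are given with the SD over the 4 libraries of a genotype. Nuak1 itself had 1204 ± 260 normalised counts in WT and 14.2 ± 4.35 in KO, so every column followed its genotype label. Summed markers of projection neurons stood at 44020 to 49490 normalised counts in KO and 38380 to 46010 in WT. By sign 6 of the 10 tested were higher in KO and the rest lower. Of the 10, 5 had an unadjusted p under 0.05, against 7.69% of all genes tested. Fezf2 was 1 of these 5 and was lower in KO (log2 fold change -0.36, unadjusted p = 0.00419, edgeR). Markers of interneurons summed to 5120 to 5613 in KO and 4124 to 4980 in WT, with 2 of the 9 tested under an unadjusted p of 0.05. By sign 8 of the 9 interneuron markers were lower in KO and 1 was higher, the neuropeptide gene Npy (log2 fold change 0.87, SE 0.12, adjusted p = 0.0314, edgeR). All 9 endothelial markers tested (1 with an unadjusted p under 0.05), all 7 of microglia (0) and all 5 of meningeal fibroblasts (5) were higher in KO by sign. So were 1 of 9 progenitor, 5 of 8 other glial and 2 of 4 hippocampal markers tested. For striatal neurons it was 4 of 4 and for red blood cells 2 of 3. Red blood cell markers summed to 549.1 to 4432 normalised counts in KO and 525.3 to 1247 in WT, with KO libraries R2 (4432) and R1 (2894) the highest. Their part in the members' values was not tested. KO library R1 stood apart with 10330 normalised counts over 9 meningeal fibroblast markers, where the other KO libraries reached at most 507.9 and WT libraries 277 to 382.9. It was also the highest in endothelial markers, at 5145, where the other KO libraries reached at most 3951 and WT libraries 3172 to 3583. In microglia markers it had 1076, while the other KO libraries reached at most 735.9, within the WT range of 523.2 to 746.6. Without KO library R1 the log2 fold changes of the 10 members lay between -0.06 and 0.09, and none had an unadjusted p under 0.05 by edgeR's quasi-likelihood test.

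No difference between Nuak1 KO and WT cortex was detected for any of the 10 genes. By edgeR's quasi-likelihood test, 0 of 10 had an unadjusted p under 0.05, against 7.69% of the 12699 genes tested, and 0 of 10 passed an adjusted p of 0.05, against 0.0709% of all genes (9 genes). DESeq2 also called 0 of 10 at either threshold, although it called 65 genes in all after adjustment. The counts over all genes moved with single libraries, from 977 genes under an unadjusted p of 0.05 to 1604 without WT library R4 and 651 without WT library R3, and from 9 genes after adjustment to 2 without KO library R3. KO and WT libraries overlapped for every member, so 0 of 10 separated the genotypes, against 4.49% of all genes. At the thresholds of the study, an absolute log2 fold change over 0.25 with an unadjusted p under 0.05, edgeR called 0 of 10 members against 4.25% of all genes. By sign 3 members were higher and 7 lower in KO, with a median log2 fold change (KO minus WT) of -0.02 beside -0.01 over all genes tested, and a median absolute value of 0.06 beside 0.08. These are levels in whole cortex, in which fewer cells of a type and less RNA per cell cannot be told apart, and transcript levels say nothing of phosphorylation, through which this cascade signals.

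**Figure D1:**
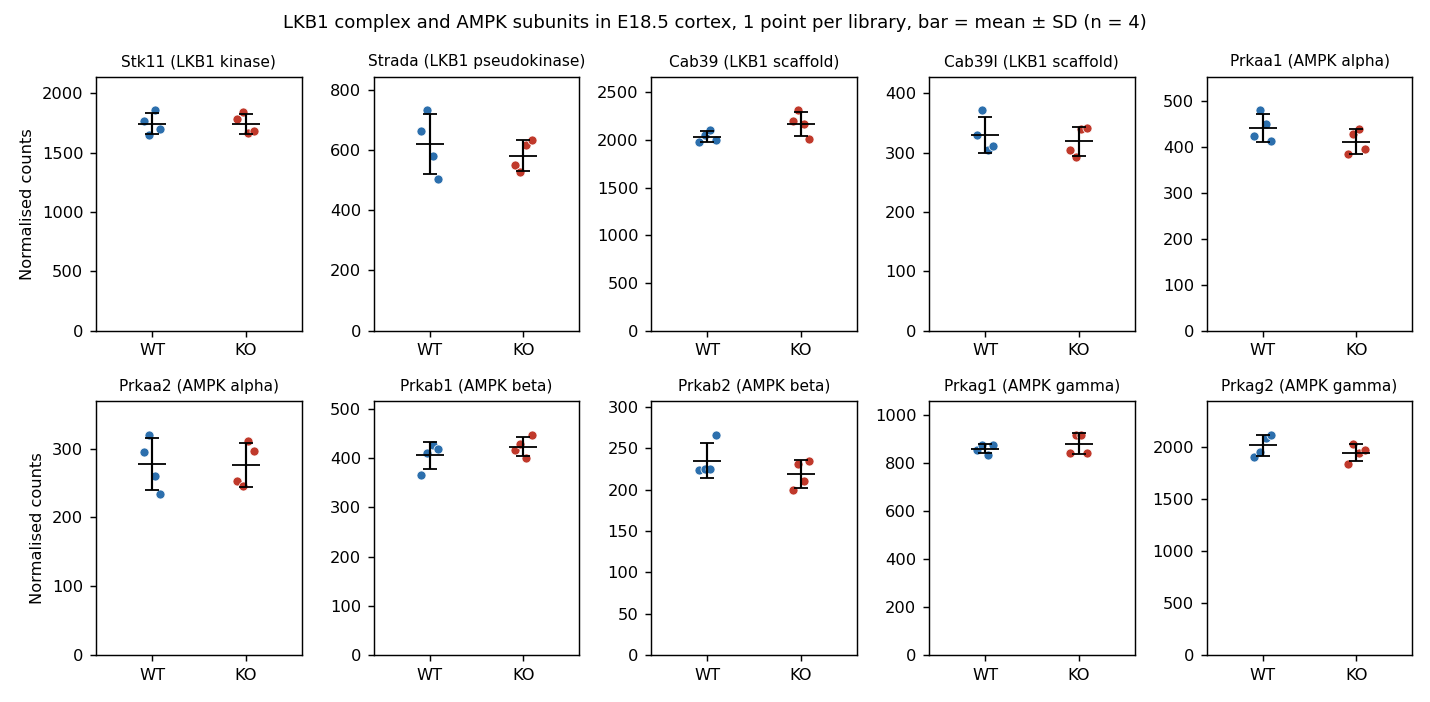
Normalised counts of the 10 genes in each library of WT and KO cortex at E18.5. Each point is 1 library, the horizontal bar is the mean and the error bar the SD (n = 4), each axis starts at 0, and the points of both genotypes overlap in all 10 panels.

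Stk11, the gene of LKB1 itself, lies on chromosome 10 of NCBIM37 (the assembly behind mm9) from 79578548 to 79593427 on the plus strand, 4.24 Mb from the targeted Nuak1. It had 1785, 1841, 1663 and 1682 normalised counts in KO libraries R1 to R4 and 1769, 1647, 1858 and 1703 in WT libraries R1 to R4. The highest and the lowest library were both WT, and the 4 KO libraries fell between them. The means were 1743 ± 84.5 in KO and 1744 ± 90.5 in WT (SD, n = 4), with a log2 fold change of -0.0027 and a standard error (SE) of 0.06 (adjusted p = 0.996 by edgeR, Benjamini-Hochberg over all genes tested). The 95% interval ran from -0.13 to 0.12, or from 0.915 to 1.09 as a ratio of KO to WT. Its sign was not stable, as it turned positive with DESeq2 (0.0030) and without WT library R3 (0.03), among other settings.

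Strada encodes the pseudokinase that holds LKB1 in its active shape. It had 550.9, 527.6, 618.2 and 633.4 normalised counts in KO libraries R1 to R4 and 664.8, 733.5, 582.6 and 503.3 in WT libraries R1 to R4. Both extremes were again WT libraries, and Strada had the widest spread of the 10 genes, with a coefficient of variation of 12.7% over the 8 libraries. Its means were 582.5 ± 51.3 in KO and 621.1 ± 99.8 in WT, a log2 fold change of -0.09 (SE 0.11, adjusted p = 0.892). The interval from -0.34 to 0.15 was too wide to exclude a decrease of the size the study used as its threshold, 0.25 on the log2 scale. Stradb, its paralog, is described with the other pathway genes.

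Cab39 and Cab39l encode the scaffolds MO25alpha and MO25beta. Cab39 had 2197, 2313, 2165 and 2007 normalised counts in KO libraries R1 to R4 and 1983, 2057, 2103 and 1998 in WT libraries R1 to R4. It came closest of the 10 to a difference, with 3 of 4 KO libraries above every WT library and KO library R4 within the WT range. The means of 2170 ± 126 in KO and 2035 ± 55.3 in WT gave a log2 fold change of 0.09 (SE 0.05, unadjusted p = 0.121, adjusted p = 0.762, edgeR). Without KO library R4 the value was 0.13 with an unadjusted p of 0.0349 and an adjusted p of 0.519, the only fit in which a member went under an unadjusted p of 0.05.

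Cab39l, the less abundant scaffold gene, had 304.9, 291.9, 339.1 and 341.3 normalised counts in KO libraries R1 to R4 and 329.8, 371.6, 303.9 and 310.8 in WT libraries R1 to R4. The groups overlapped over most of their range. Its log2 fold change was -0.04 (SE 0.09, adjusted p = 0.949, edgeR), and it was 0.03 without WT library R2, the highest of the 8.

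Prkaa1 and Prkaa2 encode the alternative catalytic subunits alpha1 and alpha2, which carry the threonine that the LKB1 complex phosphorylates. The stretches around this codon are shown for both genes and for Nuak1, the deleted kinase, because this loop is the site at which LKB1 acts on all 3. Each stretch is 45 bases of coding sequence within 1 exon, read 5′ to 3′ on the strand of the gene from NCBIM37, with the codon of the threonine in capitals.
Prkaa1: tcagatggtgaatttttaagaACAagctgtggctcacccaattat
Prkaa2: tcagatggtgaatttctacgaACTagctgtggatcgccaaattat
Nuak1: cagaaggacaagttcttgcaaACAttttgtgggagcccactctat
The codon is number 183 of Prkaa1 (chr15:5119946-5119990, plus strand), 172 of Prkaa2 (chr4:104721965-104722009, minus strand) and 212 of Nuak1 (chr10:83843537-83843581, minus strand) in the transcripts used. The 2 AMPK stretches differ at 6 of 45 bases, and each differs from Nuak1 at 24 of 45.

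Prkaa1 had 384.4, 428.7, 439.4 and 394.6 normalised counts in KO libraries R1 to R4 and 423.3, 480.2, 449.2 and 412.1 in WT libraries R1 to R4. The lowest 2 libraries were KO and the highest 2 were WT, with the other 4 mixed. Its log2 fold change of -0.10 (SE 0.08, 95% interval -0.28 to 0.07, adjusted p = 0.827, edgeR) was the lowest of the 10. Prkaa2 had 252.4, 246.3, 310.7 and 296.1 normalised counts in KO libraries R1 to R4 and 295.9, 320.7, 260.3 and 234.8 in WT libraries R1 to R4. Each genotype held 2 higher and 2 lower libraries, and the means of 276.4 ± 31.9 in KO and 277.9 ± 38.0 in WT were nearly the same. Prkaa2 also had the widest interval, from -0.27 to 0.26 around a log2 fold change of -0.0073 (SE 0.12, adjusted p = 0.994, edgeR), so these data bound a change of this gene only loosely in either direction.

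The beta subunits, encoded by Prkab1 and Prkab2, bridge alpha and gamma and bind glycogen. Prkab1 had 416.4, 428.7, 401.0 and 447.9 normalised counts in KO libraries R1 to R4 and 365.8, 411.0, 426.7 and 418.9 in WT libraries R1 to R4. WT library R1 was the lowest of the 8 and the other 7 were mixed, and the log2 fold change was 0.06 (SE 0.08, adjusted p = 0.895, edgeR). Prkab2 had 199.9, 231.1, 211.0 and 235.4 normalised counts in KO libraries R1 to R4 and 224.0, 225.2, 224.6 and 266.9 in WT libraries R1 to R4. WT libraries R1 to R3 were nearly identical and WT library R4 stood above all others. The log2 fold change of Prkab2 was -0.09 (SE 0.10, adjusted p = 0.868, edgeR) and -0.03 without WT library R4.

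The gamma subunits, encoded by Prkag1 and Prkag2, bind AMP, ADP and ATP and so make the kinase sensitive to the energy state. Prkag1 had 840.5, 916.8, 914.6 and 839.8 normalised counts in KO libraries R1 to R4 and 851.8, 873.7, 832.3 and 874.9 in WT libraries R1 to R4. It was the steadiest of the 10 genes, with a coefficient of variation of 3.83% and a log2 fold change of 0.03 (SE 0.06, adjusted p = 0.929, edgeR). Prkag2 had 1841, 2030, 1944 and 1971 normalised counts in KO libraries R1 to R4 and 1907, 1955, 2087 and 2121 in WT libraries R1 to R4. The 2 highest libraries were WT and the lowest was KO, and the log2 fold change was -0.05 (SE 0.05, adjusted p = 0.874, edgeR).

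The width of these intervals sets what the comparison could see. For 6 of 10 members (Stk11, Cab39, Cab39l, Prkab1, Prkag1 and Prkag2) the 95% interval lay within 0.25 of 0 on the log2 scale, against 36.5% of all genes tested. For the other 4 (Strada, Prkaa1, Prkaa2 and Prkab2) it reached below -0.25, and for Prkaa2 also above 0.25, so a difference as large as the threshold of the study was not excluded for these genes. Their raw counts, which began at 139 for Prkaa2 in WT library R4, were lower than those of Stk11, Cab39 and Prkag2. Low counts did not mark these 4 alone, however. In WT library R4, Cab39l had 184 raw counts and Prkab1 248, against 298 for Strada, and both had intervals within 0.25.

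**Figure D2:**
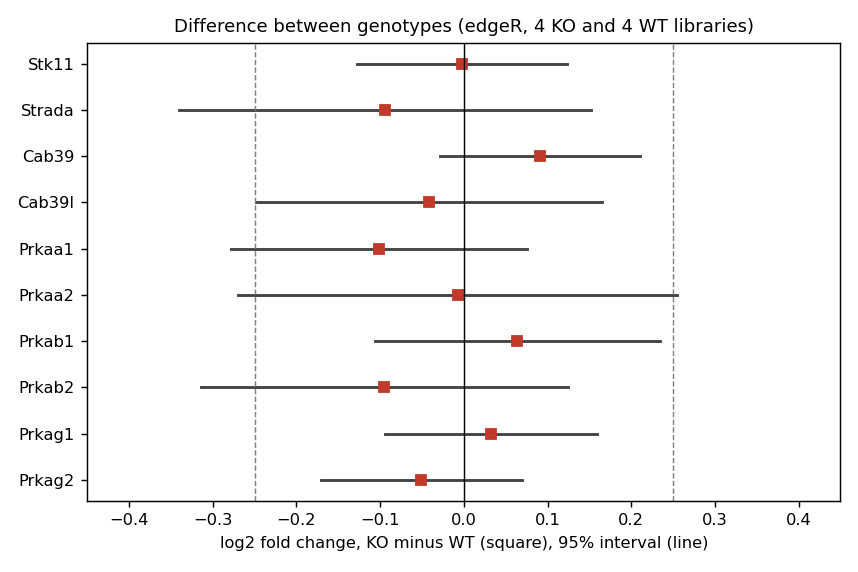
Log2 fold change of each gene, KO minus WT, from edgeR on 4 KO and 4 WT libraries. Squares are estimates, lines are 95% intervals and dashed lines mark 0.25 in either direction, and every interval includes 0 while 4 of the 10 reach past a dashed line.

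Levels of different genes were compared per kilobase of summed exon, over all 8 libraries. Prkag1 (527.1 normalised counts per kilobase) and Cab39 (507.2) stood highest, followed by Stk11 (380.7) and Prkag2 (305.9). A lower tier held Prkab1 (135.2), Strada (107.8), Cab39l (104.6) and Prkaa1 (91.6). Prkab2 (44.6) and Prkaa2 (34.8) were at the bottom, with Prkaa2 15.2-fold under Prkag1. The ranges over libraries overlapped between Prkag1 and Cab39, between each neighbouring pair from Prkab1 to Prkaa1, and between Prkab2 and Prkaa2, so these neighbours were not ordered beyond their spread. The ranges of all other neighbours in this order did not overlap. The order of the upper tier rested on the length used, since with the longest transcript Prkag2 (595 per kilobase) and Cab39 (552.7) came before Prkag1 (530) and Stk11 (476).

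**Figure D3:**
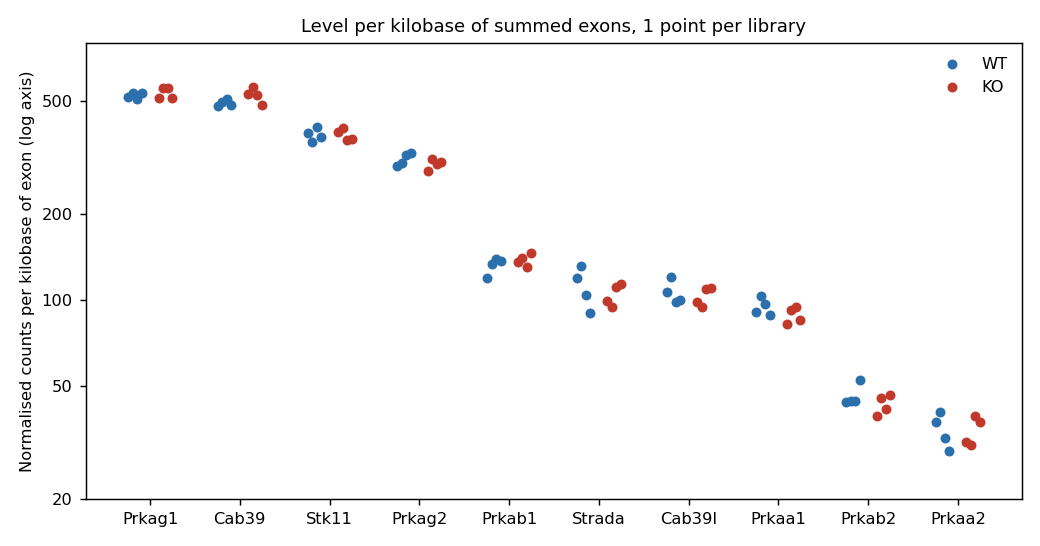
Level of each gene per kilobase of summed exon, 1 point per library, on a log axis with WT and KO side by side. The genes run from Prkag1 at a mean of 527.1 to Prkaa2 at 34.8 normalised counts per kilobase, and the genotypes overlap for each gene.

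Within each pair of alternative subunits, the same paralog led in every library on this scale. Prkaa1 made up 71.9% ± 2.3 of the summed alpha level in KO and 73.2% ± 2.0 in WT, Prkab1 76.3% ± 0.915 and 74.1% ± 1.73 of beta, and Prkag1 63.9% ± 0.961 and 62.6% ± 1.35 of these gamma genes. Cab39 made up 83.5% ± 1.8 of the MO25 level in KO and 82.2% ± 1.39 in WT. No pair separated the genotypes. Only the lead of Prkag1 depended on the length, with 47.8% in KO and 46.4% in WT when the longest transcripts were used.

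**Figure D4:**
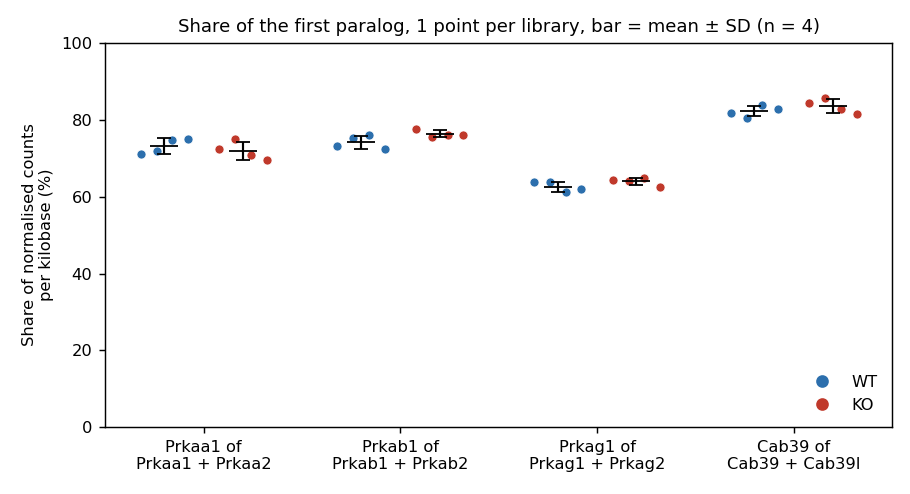
Share of the first paralog in the summed level of each pair, in percent of normalised counts per kilobase of summed exon, 1 point per library with mean and SD (n = 4). Shares lie near 72% for Prkaa1, 75% for Prkab1, 63% for Prkag1 and 83% for Cab39, with KO and WT overlapping in each pair.

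Levels of 3 members, the widely spread Strada and Prkaa2 among them, were split by the depth of the libraries and not by genotype. The 4 libraries over 15000000 counts (KO libraries R3 and R4, WT libraries R1 and R2) all had more normalised counts of Strada, Cab39l and Prkaa2 than the 4 libraries under it, which held for 0.921% of all genes tested, while 2.04% had the opposite order. Strada stood at 618.2 to 733.5 normalised counts in the deeper and 503.3 to 582.6 in the shallower libraries, Cab39l at 329.8 to 371.6 and 291.9 to 310.8, and Prkaa2 at 295.9 to 320.7 and 234.8 to 260.3. The deeper libraries were thus 1.22, 1.14 and 1.23 times higher in these genes, while the other 7 members overlapped. Stk11, although overlapping, leaned the other way, with 0.941 times the level in the deeper libraries (1647 to 1769 against 1703 to 1858). Over the 8 libraries, the log2 values of Strada and Prkaa2 moved together (Pearson r = 0.939). So did those of Cab39l with Prkaa2 (0.896) and with Strada (0.878). These 3 genes were singled out because they split the same libraries, so high values of r follow from that choice. Whether they move together within a depth class was not tested. The share of Prkaa1 was lower in the deeper libraries (69.5 to 71.9% against 72.3 to 75.0% in the shallower). So was that of Cab39 (80.5 to 82.7% against 82.8 to 85.6%). Prkaa2 and Cab39l are part of these sums, so this is not a separate observation. Prkaa1 and Cab39 themselves overlapped between the depth classes.

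Both depth classes held 2 libraries of each genotype, so KO and WT could be compared within them. The log2 ratio of KO to WT was -0.16 in the deeper and -0.01 in the shallower libraries for Strada, -0.04 in both for Cab39l, and -0.02 and 0.01 for Prkaa2. With depth class in the model, chosen after seeing the data, the standard errors of Strada and Prkaa2 fell to 0.08 each. These genes are split by that class, so the fall follows from the choice. For some other members the standard error rose, as for Prkag1 from 0.0575 to 0.0608. In this fit 0 of 10 members passed an unadjusted p of 0.05, where 970 of the 12699 genes tested did (edgeR). Summed markers of each cell type list overlapped between the depth classes. What sets the classes apart was not tested, since litter and sequencing run are not known per column.

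**Figure D5:**
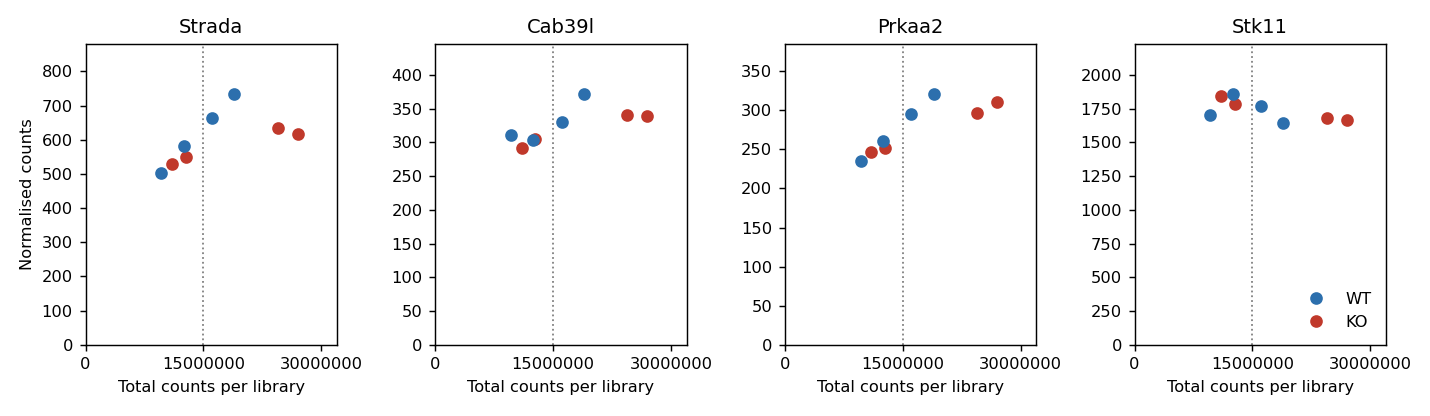
Normalised counts of Strada, Cab39l, Prkaa2 and, for contrast, Stk11 against the total counts of each library, with WT and KO in 2 colours. The dotted line marks 15000000 counts, and the 4 libraries to its right lie above the 4 to its left for Strada, Cab39l and Prkaa2 but not for Stk11.

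The wider pathway was read from 8 lists holding 62 genes, of which 59 were tested. Of these, 5 had an unadjusted p under 0.05, 1 higher and 4 lower in KO, or 8.47% against the 7.69% of all genes, and without Nuak1 it was 4 of 58 (6.9%) with none past an adjusted p of 0.05. The count of 5 fell to 3 without KO library R2, R3 or R4 or WT library R3. The other subunits of the complexes were Stradb, with 1800 ± 114 normalised counts in KO and 1772 ± 62.7 in WT and a log2 fold change of 0.02, and Prkag3, the gamma subunit of skeletal muscle, listed at 0 in all 8 libraries. None of the 7 tested kinases and phosphatases that act on the activation loop of AMPK, such as Camkk2 (log2 fold change -0.06, standard error 0.06), had an unadjusted p under 0.05, nor did any of the 5 tested partners of MO25.

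Among the 12 AMPK-related kinases activated by LKB1, 1 was higher, Nuak1 was lower (log2 fold change -6.49, standard error 0.22, adjusted p = 1.22e-07, edgeR) and 10 did not pass. The higher one was Sik2, a kinase that phosphorylates CRTC coactivators, with 1053, 1079, 1175 and 1101 normalised counts in KO libraries R1 to R4 and 1002, 900, 961.8 and 979.7 in WT libraries R1 to R4. All 4 KO libraries lay above all 4 WT libraries, where 4.49% of all genes tested separated the genotypes in either direction. The log2 fold change of Sik2 was 0.20 (SE 0.06, unadjusted p = 0.00604, adjusted p = 0.475, edgeR). Of the other pathway genes tested, Nuak1 and Hdac5 also separated the genotypes. Hdac5 had 4750 to 4898 normalised counts in KO and 4027 to 4742 in WT (unadjusted p = 0.074, edgeR). Nuak2, the closest relative of the deleted kinase, had 57.1 ± 4.00 normalised counts in KO and 64.0 ± 9.16 in WT, with overlapping libraries (log2 fold change -0.15, standard error 0.16).

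Among 13 AMPK substrates in lipid, sterol and sugar metabolism, 3 had an unadjusted p under 0.05, against 7.69% of all genes tested. None passed after adjustment, and all 3 were lower in KO with overlapping libraries. Each call was lost with some single library left out. The unadjusted p by edgeR was 0.0996 for Gys1 and 0.113 for Tbc1d1 without WT library R3, and 0.106 for Srebf1 without KO library R2. Gys1, glycogen synthase of muscle and most other tissues, had 430.0 ± 20.6 normalised counts in KO and 496.4 ± 48.8 in WT, a log2 fold change of -0.21 (SE 0.08, adjusted p = 0.629, edgeR). Srebf1, a transcription factor of lipid synthesis genes, differed by -0.16 (SE 0.06, adjusted p = 0.629) and Tbc1d1, a Rab GTPase-activating protein of glucose transporter traffic, by -0.18 (SE 0.07, adjusted p = 0.631). None of the 7 substrates in mTORC1, autophagy and translation, the 9 in mitochondria and transcription or the 5 tested folliculin partners and lysosomal docking proteins had an unadjusted p under 0.05.

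Paralogs that share sequence could in principle share reads. The coding sequences of Prkaa1 and Prkaa2 were 70.5% identical, those of Prkab1 and Prkab2 72.9%, of Prkag1 and Prkag2 69.4% and of Cab39 and Cab39l 75.5%, and no pair shared a stretch of 100 bases, the read length. Within the pairs, stretches of 25 bases, the shortest read kept, were shared only by Prkaa1 and Prkaa2, which had 11 of them in common. Stretches of 25 bases also found in transcripts of any other gene made up 5.14% of those of Stk11. They made up 0.732% for Strada and less for every other member. For Cab39, 439 bases of the transcript also match another place on chromosome 1 (89627739 to 89629255) at 97.0%, so its reads over these bases are uncertain. Less close matches covered 2438 bases of Cab39 on chromosome 7 (86.6%) and 2128 bases of Cab39l on chromosome 17 (84.7%). On the other strand, Stk11 shares 232 exon bases with Dos, Prkag1 731 of its 1647 with a lincRNA, Prkag2 937 of its 6480 with a pair of processed transcripts, and Prkab2 9 with a predicted gene. The library kit keeps strand, but the strand setting of the counting is not given in the sources used here, so reads over these bases are uncertain. Dos had 407.7 ± 17.3 normalised counts in KO and 410.9 ± 52.0 in WT. Strada shares 302 exon bases on its own strand with Ccdc47 and a small nuclear RNA gene, and Ccdc47 was listed at 0 in all 8 libraries. How the counting treated these shared bases is not known, so the reads of Strada over them are uncertain too.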

How the data were processed

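The authors trimmed 100 bp paired-end reads of a stranded poly-A kit with Cutadapt 1.13 and Prinseq (Phred quality of 20, reads under 25 bp removed), used TopHat2 2.0.13 for mapping (mm9) and SAMtools 0.1.19, and deposited HTSeq-count counts per gene, without normalization. The counting mode and strand setting are not given in the sources used here. Of 21165 rows, 4641 had no count in any library, and 0 per-library columns were left unused.

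Counts of 8 libraries (9643711 to 27014858 each) were tested here by the quasi-likelihood test of edgeR 4.0.16 in R 4.3.3, after TMM and filterByExpr and with no covariates, with p-values adjusted by Benjamini-Hochberg over 12699 genes. Standard errors were derived from each fold change and its F statistic. No 2 libraries of a genotype agreed within sampling noise (smallest chi-square per degree of freedom 5.12). Positions, lengths and sequences come from the GENCODE M1 annotation of NCBIM37, and other loci from minimap2 2.31-r1302. The table's own gene models were not used here, so lengths are approximate.

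The members, the pathway lists and the marker lists were chosen with earlier results of these data known. Named are all members, Nuak1 and the 3 genes most like Stk11. Per pathway list, up to 4 genes in each direction with an unadjusted p under 0.05 are named too. Stradb, Prkag3, Camkk2, Nuak2, Hdac5, Npy, Fezf2, Dos and Ccdc47 were added after their values were seen. Of 62 pathway genes, 61 had a row, 5 of them under an older symbol. Alternatives were DESeq2 1.42.0, its size factors in edgeR, no filter, at least 10 counts in every library, each library left out, the longest transcript as length and, chosen after seeing the data, a depth class (limit 15000000 counts) as covariate.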

Additional observations from a re-analysis of the deposited data

Results flagged for a closer look

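Of 38 groups of 4 libraries examined, 1 held a library far from the others, where chance alone flags about 1 in 20 groups. It was Prkab2 in WT, at 266.9 normalised counts in WT library R4 against 224.0 to 225.2 in the other 3 WT libraries. WT library R4 was also the shallowest of the 8, with 158 raw counts of Prkab2.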

How the results depend on the processing

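No paired analysis was possible because neither litter nor embryo is known for any column. Of 130 alternative log2 fold changes of the members, 113 kept their direction and their side of the threshold and 17 changed sign, all in Stk11, Prkaa2 and Cab39l, whose values lie close to 0. The lowest adjusted p of a member in any of them was 0.489. With DESeq2, Stk11 stood at 0.00299 and Prkaa2 at 8.77e-05. With DESeq2 size factors in edgeR, for which the median shift on the log2 scale was 0.0069, Stk11 stood at 0.00419. Without a filter the values were 0.00721 and 0.00226, and with at least 10 counts in every library 0.00513 and 0.000757. Leaving out each library in turn gave Stk11 from -0.0294 to 0.0338, Prkaa2 from -0.0696 to 0.0711 and Cab39l from -0.075 to 0.025. Members under an unadjusted p of 0.05 then numbered 0 to 1 (Cab39, without KO library R4), all tested genes 651 to 1604, pathway genes 3 to 7 and genes past an adjusted p of 0.05 from 2 to 11. DESeq2 called 65 genes after adjustment where edgeR called 9, and the cause was not tested. With the longest transcript as length, levels per kilobase were 476 for Stk11, 178 for Strada, 553 for Cab39, 198 for Prkab1 and 595 for Prkag2. On that scale Prkab1 made up 82.2% of beta in KO and 80.5% in WT, and Prkag1 47.8% and 46.4% of gamma.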

Other observations

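The 3 genes whose log2 normalised counts followed Stk11 most closely over the 8 libraries were Agap1 (Pearson r = 0.966), Cdh18 (0.954) and Dcaf5 (0.94), picked out of all genes tested and so a description only. With each library left out in turn these values stayed between 0.921 and 0.985. Between genotypes the lowest unadjusted p of the 3 by edgeR was 0.628, for Dcaf5. The opposite pattern was seen among the members themselves, where Stk11 and Cab39l had a Pearson r of -0.842, the lowest of 45 pairs with a median of -0.0639. Cab39l was 1 of the 3 members split by library depth, and Stk11 leaned the other way.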
